A study of Mus musculus with 12 samples.

Results

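Transcripts of the neuromuscular junction were followed in hind limb muscle of αB-crystallin/HspB2 knockout (KO) and wild-type (WT) mice. The 10 genes were chosen by symbol among the 22923 distinct symbols listed in each library. They are the acetylcholine receptor subunit genes Chrna1, Chrnb1, Chrnd, Chrne and Chrng, the receptor clustering genes Musk, Dok7 and Rapsn, and the acetylcholinesterase genes Ache and Colq. Each symbol was listed once, and 9 of the 10 passed the filter on low values, which asked for 1 FPKM or more in no fewer than 3 of the 12 samples. FPKM is the number of sequenced fragments scaled to transcript length and library size, so levels of different genes can be set side by side. Chrng, the exception, reached an FPKM of 1 in 2 samples.

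RNA was sequenced from proximal hind limb skeletal muscle of 12 male FVB mice (FVB/N in the methods) at 22 weeks of age, with 3 mice in each of 4 groups. The groups were WT and KO mice, each on normal chow or on high fat diet, and are called WT chow, WT high fat, KO chow and KO high fat. The titles name the WT mice Flox. The methods describe littermates from heterozygous breeding, and the KO mice lacked αB-crystallin (Cryab) and HspB2 (Hspb2) in every tissue, so that an effect in muscle fibres and an effect in nerve or other cells cannot be told apart. Each library was made from a piece of whole muscle. In such tissue, fewer cells of a type and less RNA per cell cannot be told apart, and only a small stretch of each fibre lies under its synapse.

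Groups were taken from the titles, since the separate genotype label contradicts the title of 6 samples. The 6 are every WT high fat library, KO chow replicate 3, and KO high fat replicates 1 and 2. Cryab and Hspb2 followed the titles, with a lowest value of 81.5 FPKM in the 6 WT libraries and a highest value of 1.92 FPKM in the 6 KO libraries. Spearman correlations between libraries ran from 0.963 to 0.984. Acta1, the actin gene of skeletal muscle, was listed at 0 in WT chow replicate 1 and KO high fat replicate 2, and lymphocyte genes were high in WT chow replicate 2 and KO chow replicates 1 and 3. KO chow replicate 3 also stood apart with a total of 10656382 FPKM, most of it from 1 microRNA gene, against 499509 to 691621 in the other libraries, and its total without that gene was 484182. For the tested junction genes and for the counts of genes called, calls that changed without these libraries are given with and without them. For every other named gene, calls are given with all libraries only.

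A motor nerve ending releases acetylcholine onto a dense patch of receptors in the fibre membrane. The receptor is a pentamer of α, β and δ subunits with an ε subunit in the adult or a γ subunit in the embryo and after loss of the nerve. Agrin from the nerve binds LRP4, which activates the kinase MuSK. DOK7 binds MuSK inside the fibre and is needed for its full activity, and rapsyn holds the receptors together beneath the membrane. Acetylcholinesterase ends the signal, and the collagen-like tail encoded by Colq anchors it in the synaptic matrix. Nuclei under the synapse transcribe many of these genes, while the nuclei outside it transcribe receptor genes again when the muscle loses its nerve, through E-box sites bound by myogenic factors. The N-box, a site for ETS factors, is known from synaptic promoters.

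The promoters of Chrna1 and Chrne are shown because all 6 KO libraries lay above all 6 WT libraries for both genes, and that of Chrng because it encodes the subunit that takes the place of ε. The windows come from RefSeq on GRCm38.p6 and hold 300 bases, 250 before and 50 after the annotated start, written 5′ to 3′ on the strand of the gene. Chrna1 is at chr2:73580289-73580588 on the minus strand, Chrne at chr11:70619145-70619444 on the minus strand and Chrng at chr1:87205561-87205860 on the plus strand. Capitals mark matches to the E-box CANNTG, or to the N-box CCGGAA searched on both strands.
Chrna1: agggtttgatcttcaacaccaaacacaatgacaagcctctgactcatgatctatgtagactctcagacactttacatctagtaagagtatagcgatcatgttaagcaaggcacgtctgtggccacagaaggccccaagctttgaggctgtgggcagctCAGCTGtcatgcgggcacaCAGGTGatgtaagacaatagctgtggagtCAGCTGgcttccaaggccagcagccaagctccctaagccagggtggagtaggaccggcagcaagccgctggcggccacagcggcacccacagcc
Chrne: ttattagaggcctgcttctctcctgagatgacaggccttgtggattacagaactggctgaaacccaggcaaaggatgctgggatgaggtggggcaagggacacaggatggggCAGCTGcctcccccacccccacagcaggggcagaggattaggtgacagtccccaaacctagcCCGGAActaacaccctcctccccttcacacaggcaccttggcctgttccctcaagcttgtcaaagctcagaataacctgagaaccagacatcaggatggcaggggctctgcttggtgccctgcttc
Chrng: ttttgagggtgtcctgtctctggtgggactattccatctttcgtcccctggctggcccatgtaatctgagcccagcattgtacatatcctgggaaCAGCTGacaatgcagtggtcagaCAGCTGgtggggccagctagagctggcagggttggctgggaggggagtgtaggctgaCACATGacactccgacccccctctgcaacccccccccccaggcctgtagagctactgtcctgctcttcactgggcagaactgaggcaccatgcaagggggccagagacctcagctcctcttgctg

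The Chrna1 window held 3 E-boxes, which began 92, 73 and 44 bases before the start. The Chrng window also held 3, at 155, 132 and 75 bases before it. The Chrne window held 1 E-box, 138 bases before the start, and the N-box shown, 76 bases before it. Of the 10 genes, 7 had a window in the table, in 8 windows, and Chrnd, Colq and Rapsn had none. Chrnb1 and Musk held 3 E-boxes each and Ache 1, and the Dok7 windows held 1 and 0. Among all 32851 windows, 72.3% held at least 1 CANNTG and 17.6% at least 3, and 14.9% held CCGGAA on either strand. CAGCTG, a form of the E-box, occurred 2 times in the Chrna1 and Chrng windows and 1 time in those of Chrne and Musk, and 1.9% of all windows held at least 2 and 16.3% at least 1. CAGCTG is its own reverse complement, and every CAGCTG is also a CANNTG. These matches describe letters and not bound sites.

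**Figure D1:**
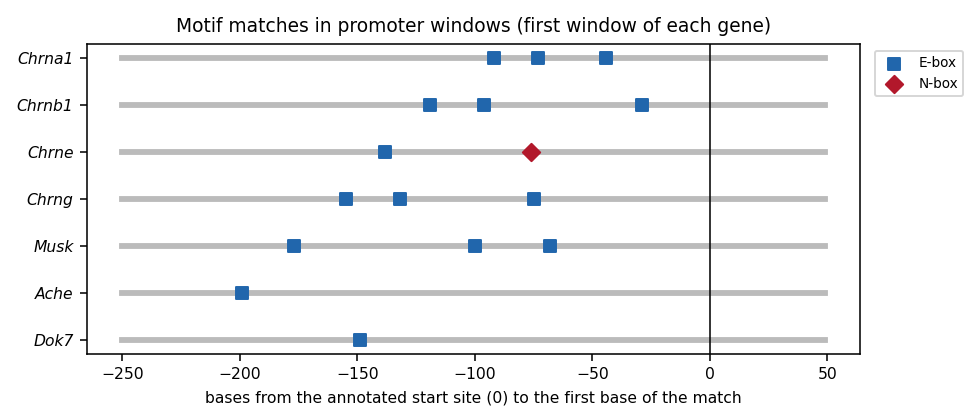
Matches to the E-box (squares) and the N-box (diamond) in the promoter window of 7 of the genes, with distance from the annotated start site in bases on the horizontal axis. Chrna1, Chrnb1, Chrng and Musk have 3 E-boxes each, and the N-box is seen in Chrne.

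Averaged over both diets, the transcripts of Colq and Chrne rose in KO muscle, and those of Musk, Dok7, Chrnd and Ache did not pass the threshold. Colq was 2.3 times and Chrne 1.83 times as high in the 6 KO as in the 6 WT libraries. Chrna1, at 2.03 times, missed the threshold (limma adjusted p = 0.0588), and Chrne passed it narrowly (0.0455). Chrne was called in 5 of the 12 fits without 1 sample. Each test was a limma fit of log2(FPKM + 1) across all 11945 genes that passed the filter, with p-values adjusted over all of them and a threshold of 0.05. On this scale the change of a gene with low FPKM is understated. By that rule 2 of the 9 tested genes were called, Colq and Chrne, both higher, beside 0.862% of all tested genes called (0.645% higher). At an unadjusted p under 0.05 there were 5 of the 9, Chrna1, Chrnb1, Chrne, Colq and Rapsn, beside 26.5% of all tested genes. For 3 of the 9 genes, Chrna1, Chrne and Colq, every KO library lay above every WT library, as it did for 1.72% of all tested genes. The median log2 fold change of the 9 genes was 0.32, and that of all tested genes was -0.02.

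**Figure D2:**
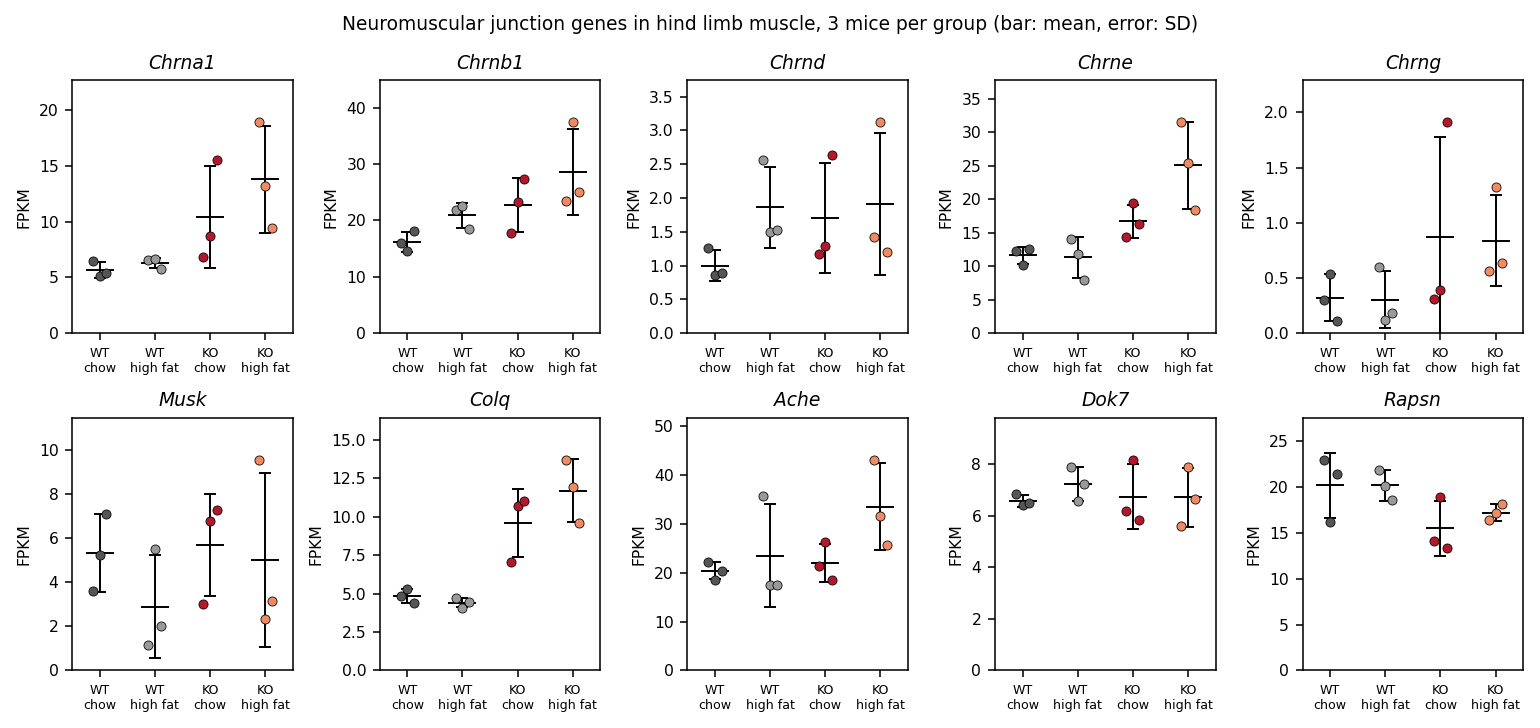
FPKM of each of the 10 genes in the 4 groups, with 1 point per mouse, a horizontal bar at the mean and an error bar of 1 SD (n = 3), which for Chrng in KO mice on normal chow runs below the axis. The KO points of Colq, from 7.02 to 13.7 FPKM, all lie above the WT points, from 4.09 to 5.28 FPKM.

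Among the receptor subunits, Chrna1 encodes the subunit that carries most of each acetylcholine binding site and lies at chr2:73563215-73580338 (GRCm38, GENCODE annotation). Chrna1 FPKM was 6.48, 5.1 and 5.41 in the WT chow group, 6.54, 6.6 and 5.74 in the WT high fat group, 6.86, 8.71 and 15.5 in the KO chow group and 18.9, 13.2 and 9.4 in the KO high fat group. All 6 KO values lay above the 6 WT values, but the lowest KO value was close to the highest WT value, and the KO mice spread far more widely than the WT mice. The coefficient of variation was 38% over the 6 KO and 10.8% over the 6 WT libraries. Over both diets it had a log2 fold change of 0.84 (SE 0.19, limma adjusted p = 0.0588). Without KO chow replicate 2 the adjusted p was 0.0374, and without KO high fat replicate 3 it was 0.0486, so that 2 of the 12 fits without 1 sample called it.

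Chrne encodes the ε subunit of the adult receptor and lies at chr11:70614883-70619216. Chrne FPKM was 12.2, 10.2 and 12.5 in the WT chow group, 14.1, 11.8 and 7.93 in the WT high fat group, 14.4, 19.4 and 16.3 in the KO chow group and 31.5, 25.5 and 18.4 in the KO high fat group. The KO libraries were again all above the WT libraries, with 14.4 against 14.1 FPKM at the boundary. Chrne rose by 0.79 on the log2 scale (SE 0.15, limma adjusted p = 0.0455). That call held in 5 of the 12 fits without 1 sample, which gave changes from 0.68 to 0.89 and adjusted p-values from 0.0293 to 0.126. It was lost without WT chow replicate 1 (adjusted p = 0.126) or 3 (0.083), WT high fat replicate 2 (0.0668), KO chow replicate 1 (0.0677) or 3 (0.101), or KO high fat replicate 1 (0.088) or 2 (0.104). Without the 3 libraries high in lymphocyte genes the change was 0.85 with an adjusted p of 0.307, and without the 2 libraries listing Acta1 at 0 it was 0.79 with an adjusted p of 0.242. The span of Chrne holds the gene 4930544D05Rik on the opposite strand, and the annotation gives the pair no shared exon bases.

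Chrnb1 encodes the β subunit, to which rapsyn binds, and lies at chr11:69784036-69795943. Chrnb1 FPKM was 15.9, 14.6 and 18.2 in the WT chow group, 21.8, 22.6 and 18.4 in the WT high fat group, 17.8, 23.2 and 27.3 in the KO chow group and 23.5, 37.4 and 25 in the KO high fat group. KO and WT values overlapped on normal chow and did not on high fat diet. Over both diets the log2 fold change was 0.43 with a 95% interval from 0.14 to 0.72 and an adjusted p of 0.0886 from limma.

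Chrnd, the gene of the δ subunit, lies at chr1:87190607-87200070 and was close to the filter. Its FPKM was 1.26, 0.857 and 0.885 in the WT chow group, 2.56, 1.5 and 1.53 in the WT high fat group, 1.17, 1.29 and 2.64 in the KO chow group and 1.42, 3.12 and 1.2 in the KO high fat group. The genotypes overlapped on both diets, and in every group but WT chow 1 library stood well above the other two. The log2 fold change between genotypes was 0.19 with a 95% interval from -0.21 to 0.6 (adjusted p = 0.515, limma).

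Chrng encodes the γ subunit of the embryonic receptor, lies 4586 bp downstream of Chrnd at chr1:87204657-87212694, and was the lowest of the 10 genes. Its FPKM was 0.303, 0.539 and 0.113 in the WT chow group, 0.6, 0.122 and 0.183 in the WT high fat group, 0.313, 0.388 and 1.91 in the KO chow group and 0.564, 1.32 and 0.635 in the KO high fat group. The values above 1 FPKM were both in KO mice, and the other KO values overlapped those of WT mice or lay just above them. The KO minus WT difference on the log2(FPKM + 1) scale was 0.46, with a two-sided exact permutation p of 0.06 when genotype was permuted within diet (400 arrangements, smallest possible p 0.005). With 0.1 in place of 1 added to the FPKM the difference was 1.14 and the exact permutation p was again 0.06. As a share of the summed Chrng and Chrne FPKM, Chrng ran from 0.899% to 5.03% in the WT libraries and from 1.76% to 10.5% in the KO libraries. Chrne was the more abundant of the pair in all 12 libraries.

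None of the receptor clustering genes Musk, Dok7 and Rapsn was called between genotypes over both diets. Musk, the gene of the kinase that receives the agrin signal, lies at chr4:58285960-58374303. Musk FPKM was 3.59, 5.25 and 7.12 in the WT chow group, 1.16, 5.53 and 2.01 in the WT high fat group, 3.03, 6.78 and 7.27 in the KO chow group and 9.56, 2.33 and 3.16 in the KO high fat group. It was the most variable of the 9 tested genes, with a highest value 8.23 times the lowest, and all 4 groups overlapped. The genotype difference was 0.32 on the log2 scale with a 95% interval from -0.44 to 1.09, which holds 1.03, the change measured for Colq.

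Dok7, whose product binds and activates MuSK, lies at chr5:35056766-35087839 and was the most even of the 10 genes. Dok7 FPKM was 6.82, 6.39 and 6.47 in the WT chow group, 7.88, 6.56 and 7.22 in the WT high fat group, 6.19, 8.16 and 5.81 in the KO chow group and 5.59, 7.88 and 6.66 in the KO high fat group. The highest value was 1.46 times the lowest, and the genotypes overlapped on both diets. The log2 fold change was -0.04 with a 95% interval from -0.24 to 0.16 (adjusted p = 0.798, limma).

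Rapsn, the gene of rapsyn, lies at chr2:91035620-91045729 and was the gene with the lowest KO to WT ratio of the 10. Rapsn FPKM was 23, 16.2 and 21.5 in the WT chow group, 21.9, 20.1 and 18.6 in the WT high fat group, 14.1, 18.9 and 13.4 in the KO chow group and 16.4, 17.2 and 18.2 in the KO high fat group. On high fat diet all 3 KO values lay below the WT values, and on normal chow the groups overlapped. The KO mean was 0.809 times the WT mean, with a log2 fold change of -0.29 (standard error 0.1, adjusted p = 0.117, limma). Without KO chow replicate 2 it was -0.36 with an adjusted p of 0.0401, the only one of the 12 fits without 1 sample that called it. The antisense transcript Gm13778 shares 4 exon bases with Rapsn, and reads of the pair may not be separated there.

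Colq and Ache encode the tail and the catalytic subunit of the synaptic esterase. Colq lies at chr14:31523082-31591343. Colq FPKM was 4.84, 5.28 and 4.4 in the WT chow group, 4.7, 4.09 and 4.45 in the WT high fat group, 7.02, 10.7 and 11 in the KO chow group and 13.7, 11.9 and 9.58 in the KO high fat group. Every KO value lay clear of every WT value on both diets. On the log2 scale Colq rose by 1.03 with a standard error of 0.11 and a 95% interval from 0.78 to 1.28 (adjusted p = 0.00258, limma). All 12 fits without 1 sample called it, with changes from 0.98 to 1.12 and adjusted p-values from 2.91e-04 to 0.0136. With both libraries that list Acta1 at 0 left out, the change was 1.02 and the adjusted p was 0.0584. Gm49387, annotated on the same strand, shares 199 exon bases with Colq, so part of the Colq value is uncertain, and Gm24057 lies within the Colq span with no shared exon base.

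Ache lies at chr5:137287519-137294466. Ache FPKM was 22.1, 18.6 and 20.4 in the WT chow group, 35.7, 17.5 and 17.4 in the WT high fat group, 21.3, 26.2 and 18.5 in the KO chow group and 43.1, 31.6 and 25.6 in the KO high fat group. The genotypes overlapped on both diets, on high fat diet through WT replicate 1. The log2 fold change was 0.32 with a 95% interval from -0.09 to 0.72 (adjusted p = 0.287, limma). The ratio of Colq to Ache FPKM ran from 0.132 to 0.284 in the WT libraries and from 0.318 to 0.593 in the KO libraries, with no overlap. Colq alone separated the genotypes too, so this is not a separate result, and the ratio was not tested. The lincRNA Gm42456 on the opposite strand shares 98 exon bases with Ache, and the microRNA gene Mir8116 lies within the Ache span with no shared exon base.

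By mean FPKM over the 12 libraries the genes fell in the order Ache (24.8), Chrnb1 (22.1), Rapsn (18.3), Chrne (16.2), Chrna1 (9.04), Colq (7.64), Dok7 (6.8), Musk (4.73), Chrnd (1.62) and Chrng (0.583). The ranges over libraries of neighbours in this order overlapped for every neighbouring pair. The 5 receptor subunits summed to between 31.3 and 45.6 FPKM in the WT libraries and between 40.5 and 80.5 FPKM in the KO libraries. Chrnd stood far below the other subunits of the adult receptor in all 12 libraries.

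The KO libraries did not order the genes alike. KO high fat replicate 1 was the highest of the 12 libraries for Chrna1, Chrne, Musk, Colq and Ache. KO high fat replicate 2 was the highest for Chrnb1 and Chrnd, and KO chow replicate 3 was the highest for Chrng. These last 2 libraries held the top 2 values of Chrnb1, Chrnd and Chrng.

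On normal chow the 9 genes were compared between KO and WT mice alone, and none was called by limma, with 0.0586% of all tested genes called. At an unadjusted p under 0.05 there were 5 of the 9, Chrna1, Chrnb1, Chrne and Colq above 0 and Rapsn below it, beside 16.7% of all tested genes. Colq was 1.98 times as high in KO mice, with a log2 fold change of 0.84 (standard error 0.16, adjusted p = 0.193, limma). Without KO chow replicate 1 this became 1.02 with an adjusted p of 0.0256, the only one of the 12 fits without 1 sample that called any of the 9 genes. The KO library left out there was the lowest KO value of Colq, at 7.02 FPKM. Log2 fold changes were 0.7 for Chrna1, 0.45 for Chrnb1, 0.48 for Chrne and -0.37 for Rapsn, with adjusted p-values from 0.281 to 0.294 from limma. KO values lay above WT values with no overlap for 3 of the 9 genes, Chrna1, Chrne and Colq, beside 8.15% of all tested genes.

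On high fat diet Colq rose 2.66 times, and it was the 1 gene of the 9 that was called, beside 0.109% of all tested genes. The log2 fold change of Colq there was 1.22 (SE 0.16, limma adjusted p = 0.0138). The call was lost without WT high fat replicate 1 (1.26, adjusted p = 0.0575) and without KO high fat replicate 1 (1.11, 0.0551) or 2 (1.21, 0.0971). It was also lost without the 2 libraries listing Acta1 at 0 (1.21, 0.165), with 1 FPKM required in every sample (1.22, 0.0608) and with the replicate number as a block (1.22, 0.0551). Chrne was 2.23 times as high, with a log2 fold change of 1.09 (standard error 0.21, adjusted p = 0.0677, limma), and no fit without 1 sample called it. Chrna1 was 2.2 times as high (log2 fold change 0.98, adjusted p = 0.113). At an unadjusted p under 0.05 there were 3 of the 9, Chrna1, Chrne and Colq, beside 16.2% of all tested genes. Ache (0.54), Chrnb1 (0.41) and Rapsn (-0.21) had adjusted p-values of 0.33, 0.307 and 0.51. KO values lay above WT values with no overlap for Chrna1, Chrnb1, Chrne and Colq, 4 of the 9 beside 13.0% of all tested genes, and below them for Rapsn, 1 of the 9 beside 10.7%. The median log2 fold change of the 9 genes was 0.54 on high fat diet and 0.4 on normal chow, and those of all tested genes were -0.01 and -0.03.

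**Figure D3:**
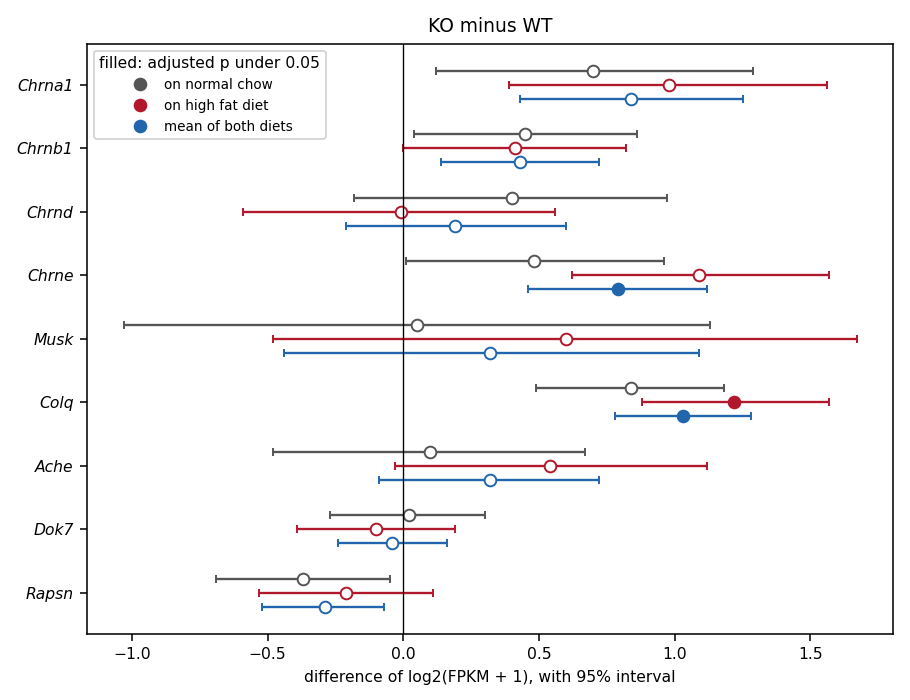
Difference between KO and WT mice in log2(FPKM + 1) on the horizontal axis for the 9 tested genes, on each diet and over both, with 95% intervals from limma and filled points where the adjusted p was under 0.05. Colq is filled on high fat diet (1.22) and over both diets (1.03), and Chrne over both diets (0.79).

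Whether the genotype effect differed between diets was tested as an interaction, and none of the 9 genes was called by limma, nor was any of all 11945 genes (0.0%). None of the 9 had an unadjusted p under 0.05, beside 6.25% of all tested genes. The largest difference of effects was that of Chrne, whose KO minus WT difference was 0.61 larger on high fat diet on the log2 scale (95% interval from -0.06 to 1.28, adjusted p = 0.835). For Colq it was 0.39 larger, with a 95% interval from -0.11 to 0.88 (adjusted p = 0.884). That Colq passed on high fat diet and not on normal chow does not show a difference between the diets.

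High fat diet called none of the 9 genes in WT mice, where 0.1% of all tested genes were called, and none had an unadjusted p under 0.05, beside 8.12% of all tested genes. Chrnb1 was 1.29 times and Chrnd 1.87 times as high on high fat diet, and for both the groups did not overlap, 2 of the 9 beside 6.2% of all tested genes. The log2 fold change was 0.35 for Chrnb1 (adjusted p = 0.692, limma) and 0.5 for Chrnd (adjusted p = 0.668). Musk was at -0.82 with a 95% interval from -1.9 to 0.26. The remaining 6 genes were between -0.11 (Colq) and 0.13 (Chrna1). Colq was at 4.63 ± 0.414 FPKM over the WT libraries (SD, n = 6), a coefficient of variation of 8.94%.

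In KO mice the diet also called none of the 9 genes, and no gene of all those tested was called (0.0%). At an unadjusted p under 0.05 there was 1 of the 9, Chrne, beside 11.3% of all tested genes. Chrne was 1.51 times and Ache 1.52 times as high on the high fat diet, with log2 fold changes of 0.54 (adjusted p = 0.431, limma) for Chrne and 0.57 (adjusted p = 0.442) for Ache. For none of the 9 did the groups separate upward, beside 10.7% of all tested genes. Dok7 was at -0.0 and Musk at -0.28. Averaged over both genotypes none of the 9 was called, beside 0.0586% of all tested genes, and Chrnb1 (0.33, adjusted p = 0.328) was the 1 gene with an unadjusted p under 0.05, beside 13.9%. The median log2 fold change of the 9 genes was 0.12 in WT mice, 0.28 in KO mice and 0.24 over both.

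**Figure D4:**
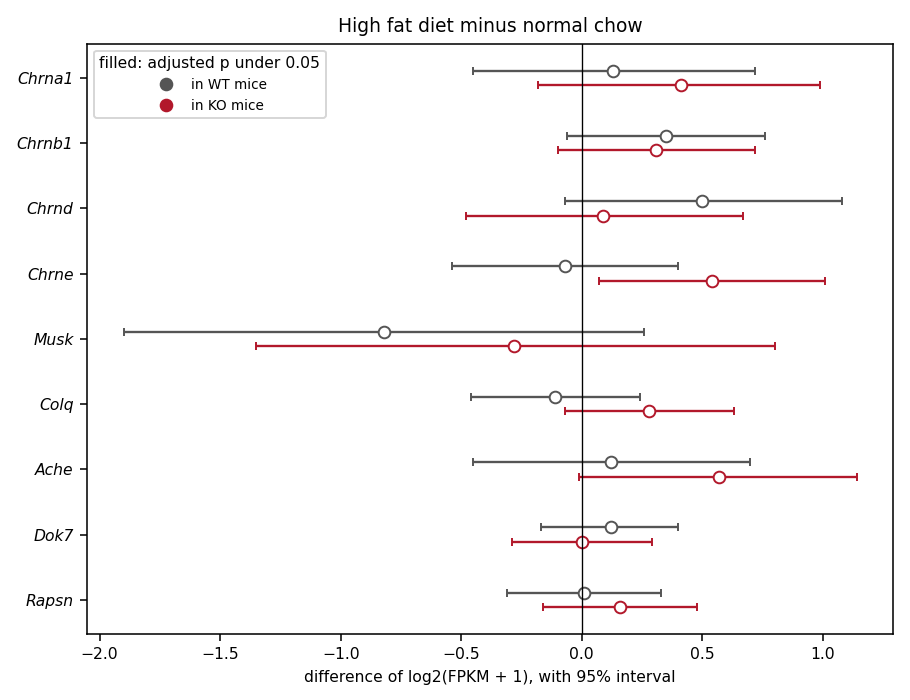
High fat minus chow difference in log2(FPKM + 1) on the horizontal axis for the 9 tested genes in WT and KO mice, with 95% intervals from limma. No point is filled, since no gene had an adjusted p under 0.05, and the intervals of Musk are the widest, from -1.9 to 0.26 in WT mice.

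Genes that work with these at the synapse were followed in 5 lists. Of 29 genes for the agrin signal and the scaffold, 27 were tested and none was called by limma between genotypes over both diets, while 3 were higher and 2 lower at an unadjusted p under 0.05, beside 26.5% of all tested genes in either direction. Their median log2 fold change was -0.02, the same as that of all tested genes. Agrn, the gene of agrin, was at 4.29 ± 0.343 FPKM in WT and 3.84 ± 0.581 in KO mice, and Lrp4, the gene of its receptor, at 2.55 ± 0.235 and 2.42 ± 0.462 (SD, n = 6), and this pair is named for its role and not for its values. Of 14 genes for the synaptic matrix, 10 were tested and none was called, with 7 higher and 1 lower at an unadjusted p under 0.05, again beside 26.5%, and a median of 0.24. Of 9 genes for the nuclei under the synapse, 7 were tested and none was called, with 1 higher and 1 lower at that threshold and a median of 0.14.

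Genes that respond to loss of the nerve were the list with most calls. Of 17, 14 were tested, 12 were above 0 and 2 were called higher in KO mice, Ankrd1 and Cdkn1a, beside 0.645% of all tested genes called higher. The median log2 fold change was 0.5, and 7 were higher and 1 lower at an unadjusted p under 0.05, beside 26.5% of all tested genes. The list was chosen with earlier results of these data known, and the paper has Ankrd1 among its top genes between genotypes on both diets. These counts beside the shares of all tested genes are therefore a description and not independent support. The 2 below 0 were Myod1, a myogenic factor (-0.36, limma adjusted p = 0.1), and Fbxo32, a ubiquitin ligase gene of muscle atrophy (-0.23, 0.373). Another myogenic factor gene of the list, Myog, was above 0 (0.96, limma adjusted p = 0.0633). Myod1, Fbxo32 and Myog were named after their values were seen. Ankrd1 encodes a stress-induced protein that binds titin. Its FPKM was 1.25, 2.15 and 1.04 in the WT chow group, 7.13, 3.33 and 4.14 in the WT high fat group, 9.95, 17.5 and 76.3 in the KO chow group and 27.5, 91.3 and 22.7 in the KO high fat group. The genotypes did not overlap, and Ankrd1 rose by 3.09 on the log2 scale (standard error 0.47, adjusted p = 0.0206, limma). Cdkn1a, the gene of the cell cycle inhibitor p21, rose from 10.1 ± 2.75 to 31.1 ± 12.2 FPKM (SD, n = 6), or 1.48 on the log2 scale (adjusted p = 0.0245). Myh3, the embryonic myosin heavy chain, was at 0.734 ± 0.403 FPKM in WT and 4.2 ± 3.18 in KO mice (SD, n = 6), which differ by 1.43 on the log2 scale (adjusted p = 0.0588). Both called genes are known to be induced by other stress in muscle too. KO chow replicate 3 and KO high fat replicate 2 held the top 2 values of Ankrd1, Cdkn1a and Myh3, as they did of Chrnb1, Chrnd and Chrng. Whether the calls of Ankrd1 and Cdkn1a hold without these libraries is not given here. Slc5a7, which passed the filter through the KO high fat group alone, is left aside in what follows. On the single diets the genes of all 5 lists with the smallest p were Ankrd1, Cdkn1a and Myh3 on normal chow and Cdkn1a and Ankrd1 on high fat diet. Ankrd1, Cdkn1a and Myh3 were not called on either diet alone.

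Of 12 genes of the motor axon and its ending, 2 passed the filter, Slc5a7 and Stmn2, and Chat and Slc18a3, which make and load acetylcholine, were listed at 0 in all 12 libraries. Such a 0 can be a failed estimate, since the muscle genes Acta1 and Myh4 were also listed at 0, in 2 and 12 libraries. Slc5a7, the choline transporter of the nerve ending, had FPKM of 1.44, 1.96 and 2.85 in the KO high fat group and at most 0.684 in the other 9 libraries. The 3 values lay above all others, and since Slc5a7 passed the filter through this group alone, no test of it is given. Stmn2, a microtubule protein of axons, was at -0.43 between diets in KO mice (adjusted p = 0.39). Across diets, the list genes with the smallest p in WT mice were Pak1, a kinase of the receptor clustering pathway (-0.63, adjusted p = 0.0966), the motor protein gene Myo5a (-0.55, 0.274) and the basement membrane gene Nid2 (-0.42, 0.346). In KO mice, with Slc5a7 left aside, they were the histone deacetylase gene Hdac9 (0.39, 0.175) and Stmn2. Pak1 was at 0.13 between diets in KO mice (limma adjusted p = 0.646). Over both genotypes, again without Slc5a7, they were Hdac9 (0.19, limma adjusted p = 0.226) and Syne1, of the nuclear envelope (-0.32, 0.231). For the interaction they were Pak1 (0.76, limma adjusted p = 0.425) and Hdac9 (0.4, 0.593), and neither was called.

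**Figure D5:**
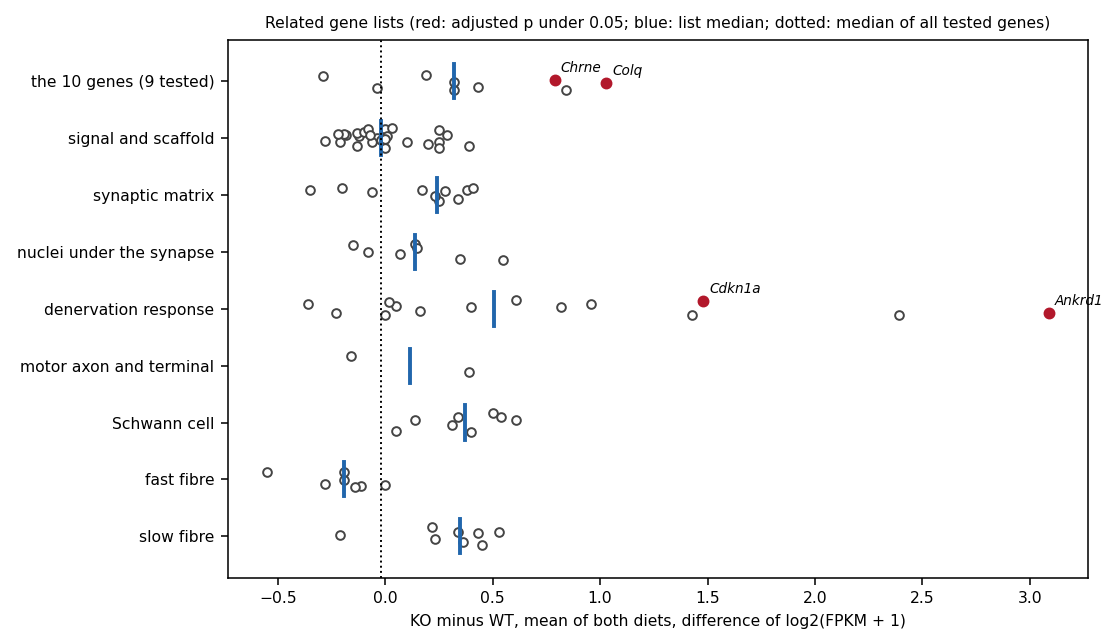
KO minus WT difference in log2(FPKM + 1), mean of both diets, for the tested genes of 9 lists, with 1 point per gene, red where the adjusted p was under 0.05, a blue bar at the list median and a dotted line at the median of all tested genes. Red points are Colq and Chrne among the junction genes and Cdkn1a (1.48) and Ankrd1 (3.09) in the denervation list.

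For each tested gene the 2 genes most like it over the 12 libraries were found by Pearson r on log2(FPKM + 1), given as a description over samples that share their groups. Chrna1 was most like Rin1 (r = 0.95), a regulator of small GTPases, and Nes (0.94), the gene of nestin, an intermediate filament protein enriched beneath the synapse. Chrne was most like Hs6st2 (0.94) and Colq (0.88). Colq was most like Serpina3h (0.97) and Serpina3i (0.96), protease inhibitor genes whose mean FPKM was 0.448 and 0.0694 in WT and 13.3 and 1.6 in KO mice. With group means removed these r were 0.87 for Rin1, 0.92 for Nes, 0.83 for Hs6st2, 0.53 for Colq with Chrne, 0.74 for Serpina3h and 0.78 for Serpina3i. With such low WT means, Serpina3h and Serpina3i could pass the filter only with KO libraries counted, where Colq is also high. Their place as most like Colq is a description and no support for its call.

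Ache was most like Ufsp1 (r = 0.97, and 0.96 with group means removed), whose annotated start is 162 bp from the end of Ache. Ufsp1 is also in the list for the nuclei under the synapse. Reads of such close neighbours may be shared by the counting, which was not tested. Lsg1 followed at 0.87. Musk was most like Tnpo1 (0.96) and Foxk1 (0.95), Rapsn like Hdac3 (0.97) and 1110004E09Rik (0.97), and Chrnd like Hmg20b (0.94) and Cox19 (0.92). Chrnb1 was most like Pqlc1 (0.94) and Tceal7 (0.94), and Dok7 like 2810410L24Rik (0.9) and Cope (0.87). Among the junction genes themselves r was 0.9 for Chrna1 with Colq, 0.86 for Chrna1 with Chrne, 0.79 for Chrne with Ache and 0.76 for Chrnb1 with Chrnd. With group means removed these were 0.75, 0.55, 0.8 and 0.77. Musk had r between -0.59 (Dok7) and 0.36 (Chrna1) with the others.

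Markers of other cell types were set beside the calls of Colq and Chrne. Of these markers 1, Emr1, was called between genotypes over both diets, beside 0.862% of all tested genes. The median log2 fold change of all tested genes was -0.02. All 6 macrophage genes were above 0, Emr1 among them (0.89, adjusted p = 0.0418, limma), and their summed FPKM ran from 98.5 to 209 in WT and from 158 to 335 in KO libraries. All 7 adipocyte genes were above 0 and none was called, with sums from 6.62 to 820 in WT and from 410 to 1990 in KO libraries. The median log2 fold change was 2.06 for the adipocyte genes and 0.93 for the macrophage genes. At an unadjusted p under 0.05, all 6 macrophage genes and 6 of the 7 adipocyte genes were higher, beside 26.5% of all tested genes in either direction. All 8 tested Schwann cell genes of 10 were above 0 and none was called, with sums from 106 to 494 and from 150 to 459. This direction was not shared by the diets. All 8 were above 0 on normal chow (median 0.83), and 7 of the 8 were below 0 on high fat diet (median -0.11). Lymphocyte genes were above 0 in 7 of 7, with sums from 0.701 to 75.2 and from 1.25 to 87.2. They were above 0 in 7 of 7 on normal chow, and 5 of the 7 were below 0 on high fat diet. Tendon genes were above 0 in 0 of 4 tested, with sums from 11.6 to 306 and from 13 to 116. No gene of either list was called. At an unadjusted p under 0.05 over both diets, no Schwann cell or lymphocyte gene passed, and 3 of the 4 tendon genes were lower. The part of these cells in the results for the junction genes was not tested.

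All 7 tested fast fibre genes were below 0, none was called, and their sums ran from 39900 to 55800 FPKM in WT and from 30800 to 50900 FPKM in KO libraries. Of 8 slow fibre genes 7 were above 0, with sums from 186 to 2570 and from 637 to 1690. Of 8 general fibre genes 7 were below 0, with sums without Acta1 from 26500 to 37200 and from 20500 to 30200. The 7 include Acta1 (-0.1, standard error 3.01), whose sign is uncertain since 2 libraries list it at 0. Myh4, a fast myosin gene, was listed at 0 in all 12 libraries. Satellite cell genes were 2 tested of 4, both below 0, with sums from 9.29 to 16 and from 8.04 to 13.6, and keratinocyte genes were 1 tested of 4, below 0, with sums from 1 to 8.7 and from 0.804 to 1.52. No gene of these 5 lists was called between genotypes, beside 0.862% of all tested genes, and their part in the results was not tested.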

How the data were processed

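Muscle RNA of 12 mice was sequenced with paired-end reads (Illumina HiSeq2000, TruSeq libraries). The authors deposited 1 FPKM value per row and library, a unit read from the values and from the submitters' processing notes, which name TopHat2 2.0.8b, Cuffdiff 2.1.1 and mm10 without their roles. The annotation, strand setting and library scaling are not given in the sources used here. Each file lists 23179 rows, and repeated symbols were represented by their highest row. FPKM keeps no read counts, so depth is unknown, though steps between low values gave relative depths within 1.35 times. FPKM totals without the highest gene of each library ran from 476504 to 656456.

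The 11945 genes reaching 1 FPKM in no fewer than 3 samples were fitted with limma 3.58.1 in R 4.3.3 on log2(FPKM + 1), with an intensity trend, 4 group means and Benjamini-Hochberg adjustment at 0.05, in 7 contrasts. The fit was run on simulated data in which each gene varied on its own. Such data do not test variation that the genes of a library share. Chrng was tested by an exact permutation with SciPy 1.17.1. The methods state independent samples, and p-values measure the spread between them. Contrasts share samples. Named are the 10 genes, from 5 related lists the called genes and the 3 of smallest p in each contrast, the 2 tested genes most like each of the 10, and genes overlapping them. The genes and lists were chosen with earlier results of these data known. Positions come from GENCODE on GRCm38, the build that mm10 names.

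Alternatives were size factors, quantile normalization, a pseudocount of 0.1, other filters, 2 groups only, a replicate block, the genotype label, and leaving out each sample. Leaving out the 3 libraries rich in lymphocyte genes (Cd79a over 10 FPKM) or the 2 listing Acta1 at 0 was chosen after seeing the data.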

Additional observations from a re-analysis of the deposited data

How the results depend on the processing

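Over both diets, Colq kept its direction under all 8 alternatives that kept the titles' groups and was called under 7 of them, and Chrne was called under 4. Genes called between genotypes on normal chow (7) became 0 with 1 FPKM required in every sample, 4 with only the 2 groups, 4 without the libraries listing Acta1 at 0 and 4 to 14 without 1 sample, and junction genes called were 0 to 1. On high fat diet (13, with 1 junction gene) the counts were 26 with quantile normalization, 24 with no filter, 0 with 1 FPKM in every sample, 8 with 2 groups, 4 without the Acta1 libraries and 4 to 82 without 1 sample. Junction genes were then 0 with 1 FPKM in every sample (Colq, limma adjusted p = 0.0608), 0 without the Acta1 libraries and 0 to 1 without 1 sample. Over both diets (103, with 2 junction genes) the counts were 200 with quantile normalization, 42 with no filter (1 junction gene, Chrne adjusted p = 0.0798), 11 without the lymphocyte-rich libraries (1), 8 without the Acta1 libraries (0) and 10 to 1208 without 1 sample (1 to 4). Between diets in WT mice (12) they were 3 with 2 groups, 1 without either set of libraries and 1 to 32 without 1 sample, and in KO mice (0) 9 with quantile normalization, 6 with no filter, 7 with 2 groups and 0 to 10 without 1 sample. Over both genotypes (7) they were 1 without either set and 1 to 18 without 1 sample, and for the interaction (0) 1 with no filter and 0 to 1. No junction gene was called between diets or for the interaction under any alternative. Chrng and Chrnd, near or below 1 FPKM, are the least precise, and the causes of these changes were not tested.

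With the genotype label in place of the title, which puts the 3 WT high fat libraries with KO high fat replicate 3, 0 genes and 0 junction genes were called between genotypes on either diet or over both, and 0 genes between diets in WT mice or over both genotypes. The direction turned for Colq (-1.11, adjusted p = 0.49) on high fat diet, and for Colq (-0.32) and Chrne (-0.37) over both diets. Values that were not called also changed sign under that label. Between genotypes these were Chrnd (-0.06) and Musk (-0.24) on normal chow. On high fat diet they were Chrna1 (-1.08), Chrnb1 (-0.43), Chrne (-1.12), Musk (-0.7), Ache (-0.66), Dok7 (0.08) and Rapsn (0.22). Over both diets they were Chrna1 (-0.51), Chrnb1 (-0.15), Chrnd (-0.15), Musk (-0.47), Ache (-0.21), Dok7 (0.11) and Rapsn (0.04). Between diets they were Chrne (1.11), Colq (0.98) and Rapsn (-0.11) in WT mice and Chrna1 (-0.13), Chrne (-0.39), Colq (-0.6) and Ache (-0.04) in KO mice, and for the interaction Chrna1 (-1.15), Chrne (-1.5), Musk (-0.46), Colq (-1.59) and Ache (-0.9). Other uncalled values near 0 changed sign with quantile normalization for Musk (-0.01) and Dok7 (-0.02) between genotypes on normal chow and Rapsn (-0.01) between diets in WT mice. They did so without the Acta1 libraries for Musk on normal chow (-0.16) and, between diets in KO mice, Chrnd (-0.19) and Musk (0.06). Without the lymphocyte-rich libraries it was Dok7 between genotypes (0.08) and between diets (-0.08), and Rapsn between diets in WT mice (-0.14), in KO mice (-0.12) and over both genotypes (-0.13). Without 1 sample the ranges that crossed 0 were, on normal chow, Musk (-0.16 to 0.38), Ache (-0.03 to 0.21) and Dok7 (-0.11 to 0.1), on high fat diet Chrnd (-0.29 to 0.16) and Dok7 (-0.21 to 0.01), and over both Dok7 (-0.11 to 0.01). Between diets they were Rapsn (-0.14 to 0.1), Ache (-0.21 to 0.29) and Chrne (-0.24 to 0.14) in WT mice, Chrnd (-0.19 to 0.33), Musk (-0.78 to 0.06) and Dok7 (-0.11 to 0.13) in KO mice, Colq (-0.01 to 0.15) over both genotypes, and Chrnb1 (-0.24 to 0.1) and Dok7 (-0.23 to 0.01) for the interaction.

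The replicate number as a block gave 4 genes between genotypes on normal chow, 5 on high fat diet and 40 over both diets, and 7 between diets in WT mice and 1 over both genotypes. Colq on high fat diet (limma adjusted p = 0.0551, leaving 0 junction genes) and Chrne over both diets (0.0725, leaving 1) lost their calls, and Colq over both diets kept its own (0.0184). Deviations of same-numbered samples correlated at -0.81 to -0.27 between the WT chow and KO chow groups and at most 0.39 in any pair of groups. Samples of different number were not set beside them, so whether the number marks a pairing was not tested.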

Other observations

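One gene of the marker lists was called between diets, beside 0.1% of all tested genes in WT mice and 0.0586% over both genotypes. Chodl, a membrane lectin placed here with the satellite cell markers, had FPKM of 1.76, 1.96 and 2.06 in the WT chow group and 5.88, 5.92 and 5.22 in the WT high fat group. It rose by 1.19 on the log2 scale in WT mice (SE 0.15, limma adjusted p = 0.0163). In KO mice Chodl was at 1.7, 2.7 and 2.79 FPKM in the chow group and at 3.48, 4.39 and 2.88 FPKM in the high fat group. Over both genotypes it rose by 0.81 (limma adjusted p = 0.0227).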
